A study of Homo sapiens with 12 samples.

Results

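DNA replication and G1/S genes are described here as 38 genes, chosen by symbol. Their known roles are in loading and firing replication origins, copying DNA, supplying nucleotides and starting S phase. The choice was made with earlier results of these data known. All 38 were found among the 60099 genes of the deposited table and all 38 passed the filter on low counts, which kept 19944 genes. With 200 ng/ml IFNα, 10 of the 38 passed the test averaged over both line sets, 7 higher and 3 lower, where 9.55% of all genes tested passed, 4.98% higher and 4.57% lower. The changes were small, and 1 member, GINS4, changed by at least 2-fold on the estimated counts. By TPM, a measure scaled for length and depth, the averaged log2 fold change of GINS4 was -0.31 and did not pass. By a test of the difference, 2 members, RRM2 and E2F1, changed differently in the line sets, and 0 did without D1, F1 or F2. In the samples lettered D to F, 31 of the 38 had a positive log2 fold change, where 48.8% of all genes did. Their median there was 0.24, and 7 rose, where 3.44% of all genes did. In the samples lettered A to C, 22 of the 38 had a negative log2 fold change, where 10030 of the 19944 genes did. Their median there was -0.07, and 1 fell, where 3.6% of all genes did.

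A cell prepares its origins in G1, when the origin recognition complex, CDC6 and CDT1 load the ring-shaped MCM2-7 helicase onto DNA. At the start of S phase CDC45 and the GINS complex join MCM2-7 to form the active helicase, polymerases α, δ and ε copy the strands behind it, and PCNA, its loader RFC, FEN1 and LIG1 keep the polymerases on DNA and finish the lagging strand. Cyclin E with its kinase, the phosphatase CDC25A and the factor E2F1 drive entry into S phase, and many of the genes described here are textbook E2F targets. Type I interferons are known both for the antiviral genes they switch on and for slowing the cycle of many cell types.

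The series holds RNA-seq of 12 samples of head and neck squamous cell carcinoma (HNSCC) cell lines, and its design names the established lines Cal27 and HN30. Controls without IFNα (letters A and D), a low dose of 20 ng/ml (B and E) and a high dose of 200 ng/ml (C and F) each have 2 samples per letter, and exposure lasted 24 h. Each dose occurs once among letters A-C and once among D-F, and these line sets stand here for the lines, but which letters are Cal27 and which HN30 is not given in the sources used here. No genotype or vector is named beyond the lines, and the labels do not say whether the 2 samples of a letter came from separate cultures, so p-values measure the spread between these samples, which may be technical.

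Total estimated counts ran from 10517448 to 16056734 per sample and were higher in each control than in either sample of 200 ng/ml of the same line set. A panel of 12 interferon-stimulated genes rose at least 2-fold at both doses in both line sets, as a check of the dose labels. Among 8 squamous epithelial markers, summed TPM was 2574 to 3155 in A-C and 1156 to 1370 in D-F. KRT14, a basal keratin, was at most 0.254 TPM in D-F against 41.9 to 49.2 in A-C. KRT5, KRT17, TP63 and SFN were also lower in every sample of D-F than in any of A-C. CDH1, EPCAM and DSG3 overlapped between the line sets. Of the leukocyte markers, PTPRC was at most 0.0425 TPM in each sample and CD3E was listed at 0 in all 12, whereas CD68 rose from 5.29 to 10.1 TPM in the controls to 17.4 to 39.6 TPM at 200 ng/ml. CDH5, listed as an endothelial marker, was at 15.2 to 21.7 TPM in A-C and at most 0.156 in D-F, with PECAM1 and VWF at most 0.576 TPM. Of the fibroblast markers COL1A1 was at 3.43 to 13.0 TPM and COL3A1, DCN and LUM at most 0.431. The part of these markers in the results was not tested. In bulk RNA, fewer cells in S phase and less RNA per cell cannot be told apart.

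Values below are TPM (a measure of abundance scaled for transcript length and depth) in every sample, while log2 fold changes, their standard errors (SE) and adjusted p-values come from edgeR's quasi-likelihood test on the estimated counts with Benjamini-Hochberg adjustment over all 19944 genes. A gene passed with an adjusted p of at most 0.05. By mean TPM over the 12 samples the members ran from PCNA at 452 to CCNE1 at 12.5, with MCM7 at 243, RRM2 at 236 and RRM1 at 157 next after PCNA, and CCNE2 at 16.6 and GINS4 at 14.4 just above CCNE1. The samples of GINS4, 8.97 to 21.2 TPM, and of CCNE1, 8.50 to 16.2, overlapped, as did those of RRM2, 157 to 286, and MCM7, 170 to 322.

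**Figure D1:**
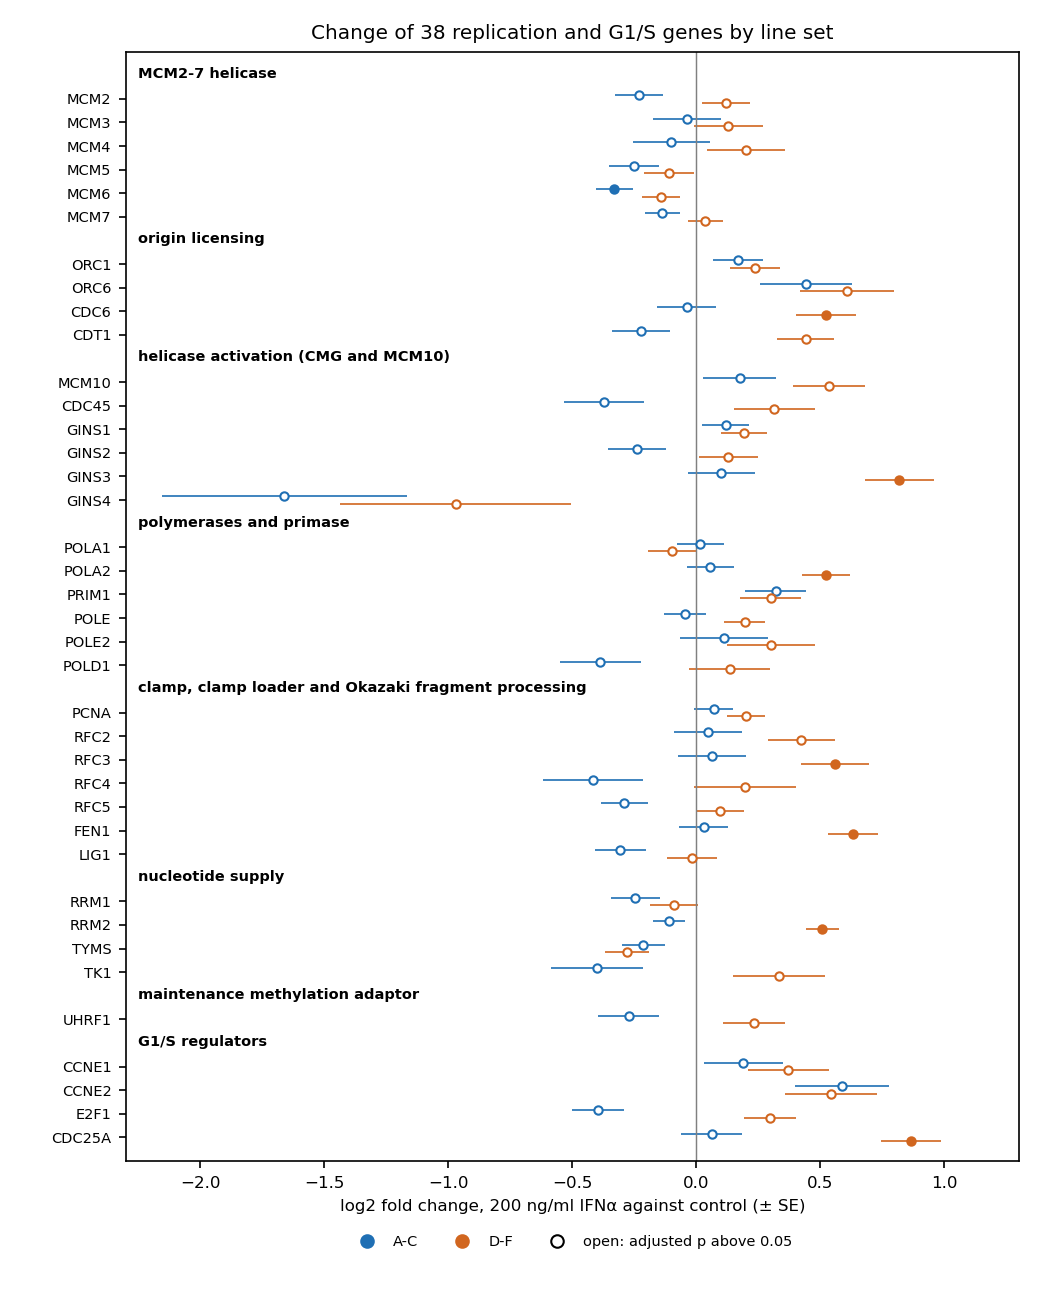
Log2 fold change (x axis, with SE) of each of the 38 genes at 200 ng/ml IFNα against control, in A-C (blue) and D-F (orange), 2 samples per letter; filled points passed at an adjusted p of at most 0.05. In D-F 7 points are filled, all to the right of 0, and in A-C 1 is filled, MCM6, to the left.

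Of the 6 genes of the MCM2-7 helicase, the ring that unwinds DNA, 1 passed the averaged test at 200 ng/ml. MCM6 was at 82.7 and 80.6 TPM in A, 66.4 and 66.2 in B and 60.7 and 64.9 in C, and at 46.4 and 48.4 in D, 49.1 and 51.9 in E and 44.1 and 46.6 in F. Each treated sample of A-C lay below both controls, whereas doses overlapped in D-F by TPM. By TMM-normalised counts (CPM), however, both F samples of MCM6, 89.6 and 94.0, lay below both D samples, 98.3 and 104. The averaged log2 fold change was -0.24 ± 0.05 (SE, adjusted p = 0.0222 by edgeR). MCM5 was at 158 and 140 TPM in A, 115 and 115 in B, 112 and 100 in C, 80.6 and 116 in D, 88.1 and 113 in E and 79.8 and 110 in F. By TPM its samples separated by dose in A-C but not in D-F, where replicates differed more than doses. By CPM both F samples, 156 and 156, lay below both D samples, 160 and 177. The averaged change of -0.18 did not pass (adjusted p = 0.153 by edgeR). MCM7, the most abundant of the 6, was at 184 and 185 TPM in A, 170 and 187 in B, 170 and 184 in C, 288 and 293 in D, 319 and 322 in E and 298 and 322 in F. Its doses overlapped in A-C, and its averaged change was -0.05 on the counts. MCM2, MCM3 and MCM4 had averaged log2 fold changes between -0.06 and 0.05, none of which passed. All 6 genes had a negative change in A-C, from -0.33 to -0.04, where 10030 of the 19944 genes did. In D-F 4 of the 6 had a positive one, where 48.8% of all genes did. Only MCM6 passed in A-C, and 0 of the 6 passed in D-F.

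Among the origin licensing genes ORC6 passed the averaged test. ORC6, the smallest subunit of the origin recognition complex, was at 42.6 and 35.7 TPM in A, 40.2 and 52.7 in B, 48.3 and 56.5 in C, 32.5 and 29.6 in D, 48.9 and 40.5 in E and 53.4 and 41.4 in F. Both samples at 200 ng/ml exceeded both controls in each line set, and the averaged change was 0.53 ± 0.13 (adjusted p = 0.0368 by edgeR). ORC1, the ATPase subunit that is made in G1, was at 25.8 and 28.8 TPM in A, 31.2 and 29.8 in B, 29.8 and 31.6 in C, 23.2 and 23.1 in D, 28.2 and 25.8 in E and 28.8 and 28.4 in F. It also lay above the controls in both line sets at 200 ng/ml, by 0.20 on the log2 scale, without passing (adjusted p = 0.112 by edgeR). CDC6, which recruits the helicase to origins, was at 52.7 and 50.6 TPM in A, 47.8 and 51.0 in B, 43.2 and 55.1 in C, 35.9 and 36.4 in D, 46.6 and 51.5 in E and 51.9 and 49.4 in F. Its treated samples straddled the controls in A-C and all exceeded them in D-F, where the change of 0.53 at 200 ng/ml passed (adjusted p = 0.0346 by edgeR). CDT1, the partner of CDC6 in loading, had log2 fold changes of -0.22 for A-C and 0.44 for D-F, neither of which passed.

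Among the genes that activate the helicase, GINS3 rose and GINS4 fell in the averaged test. GINS3, a subunit of the GINS tetramer, was at 31.2 and 33.8 TPM in A, 31.5 and 34.5 in B, 28.9 and 34.4 in C, 15.1 and 14.8 in D, 24.6 and 29.6 in E and 27.6 and 25.7 in F. The doses overlapped in A-C and were far apart in D-F, where the change at 200 ng/ml was 0.82 ± 0.14 (adjusted p = 0.00768 by edgeR) and the average over both sets 0.46 ± 0.10 (adjusted p = 0.0167 by edgeR). MCM10, which stabilises the helicase at the fork, was at 17.9 and 19.1 TPM in A, 20.6 and 18.9 in B, 16.05 and 22.5 in C, 19.5 and 28.4 in D, 33.5 and 35.8 in E and 40.9 and 37.0 in F. All treated samples of D-F exceeded their controls, and the averaged change of 0.36 did not pass (adjusted p = 0.0628 by edgeR).

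GINS4, another GINS subunit, fell by 1.32 on the log2 scale (SE 0.34, adjusted p = 0.0400 by edgeR), the only change of 2-fold or more among the members, where 2.14% of all genes tested passed at that size. Its estimated counts were 257 and 403 in A, 89 and 258 in B, 80 and 74 in C, 460 and 491 in D, 304 and 326 in E and 95 and 295 in F. In TPM, however, it stood at 9.64 and 14.7 in A, 10.4 and 10.2 in B, 8.97 and 11.6 in C, 21.2 and 19.6 in D, 18.9 and 17.4 in E and 14.4 and 16.02 in F. Controls and 200 ng/ml overlapped in A-C by TPM, and with limma on log2(TPM + 1) the averaged change was -0.31 (adjusted p = 0.257). The estimated counts of its 2 most abundant protein coding transcripts ranged from 0 to 387 and from 1 to 316 over the 12 samples, and their part in the gap between the count and TPM values was not tested.

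Of 6 polymerase and primase genes, 1 rose. POLA2, the B subunit of polymerase α, was at 122 and 120 TPM in A, 139 and 108 in B, 111 and 142 in C, 91.4 and 91.0 in D, 139 and 132 in E and 121 and 142 in F. Replicates of B and C spread on either side of the A-C controls, while each treated sample of D-F lay above both of its controls. The change was 0.52 ± 0.10 in D-F (adjusted p = 0.0122 by edgeR) and 0.29 ± 0.07 on average (adjusted p = 0.0267 by edgeR). PRIM1, the catalytic primase subunit, was at 71.5 and 55.3 TPM in A, 63.1 and 66.8 in B, 67.6 and 80.2 in C, 48.6 and 49.5 in D, 62.1 and 65.8 in E and 60.9 and 65.6 in F. Its averaged change of 0.31 came close to the threshold without reaching it (adjusted p = 0.0562 by edgeR) and was alike in A-C, 0.32, and D-F, 0.30. POLE2, the second subunit of polymerase ε, was at 25.2 and 19.9 TPM in A, 18.1 and 28.8 in B, 23.0 and 27.1 in C, 27.2 and 26.6 in D, 40.9 and 37.95 in E and 30.4 and 42.5 in F, with an averaged change of 0.21 (adjusted p = 0.362 by edgeR). The catalytic subunits POLA1, POLE and POLD1 changed by -0.04, 0.07 and -0.13.

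FEN1, the flap endonuclease that trims Okazaki fragments, rose, and it was the only one of 7 clamp, clamp loader and lagging strand genes to pass the averaged test. Its TPM was 95.8 and 91.5 in A, 97.9 and 95.6 in B, 94.3 and 94.0 in C, 83.1 and 94.8 in D, 131 and 147 in E and 136 and 152 in F. All samples of A-C lay within 91.5 to 97.9, whereas every treated sample of D-F was above every control of either set. The change in D-F was 0.63 ± 0.10 (adjusted p = 0.00520 by edgeR), and that in A-C 0.03. RFC3, a clamp loader subunit, was at 39.4 and 34.2 TPM in A, 45.1 and 45.9 in B, 40.6 and 35.3 in C, 28.4 and 42.2 in D, 38.2 and 43.5 in E and 47.0 and 48.6 in F. It rose by 0.56 in D-F (adjusted p = 0.0455 by edgeR), although its 2 controls there differed by more than either treated pair. PCNA, the sliding clamp, was at 382 and 317 TPM in A, 323 and 315 in B, 354 and 373 in C, 487 and 491 in D, 609 and 587 in E and 597 and 591 in F, and its averaged change of 0.14 did not pass (adjusted p = 0.173 by edgeR).

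Nucleotide supply genes went in both directions. RRM2, the regulated subunit of ribonucleotide reductase, was at 248 and 259 TPM in A, 286 and 262 in B, 239 and 248 in C, 157 and 160 in D, 245 and 246 in E and 246 and 232 in F. In D-F its TPM went from far below that of A-C to close to that range at both doses, whereas its TMM-normalised counts (CPM) in E and F, 244 to 263, stayed below those in A-C, 312 to 344. Its replicates lay close together throughout. The change at 200 ng/ml was 0.51 ± 0.07 in D-F (adjusted p = 0.00161 by edgeR) and -0.11 ± 0.07 in A-C (adjusted p = 0.359 by edgeR). TYMS, which makes thymidylate, was at 171 and 165 TPM in A, 135 and 138 in B, 135 and 157 in C, 119 and 125 in D, 114 and 109 in E and 106 and 115 in F. Each treated sample lay below both controls of its set, and the averaged change was -0.25 ± 0.06 at 200 ng/ml (adjusted p = 0.0361 by edgeR). RRM1, the large subunit of the same reductase as RRM2, was at 161 and 151 TPM in A, 132 and 147 in B, 127 and 114 in C, 157 and 180 in D, 181 and 184 in E and 180 and 176 in F, with an averaged change of -0.17 that did not pass (adjusted p = 0.175 by edgeR). TK1, the salvage kinase, had log2 fold changes of -0.40 for A-C and 0.33 for D-F and did not pass.

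The G1/S regulators included the member with the smallest averaged p. CDC25A, the phosphatase that activates the cyclin E kinase, was at 20.2 and 19.6 TPM in A, 25.5 and 21.7 in B, 22.8 and 21.6 in C, 24.3 and 27.9 in D, 41.3 and 43.7 in E and 45.8 and 55.5 in F. Treated samples of A-C exceeded their controls by little, whereas those of D-F lay well above all others. The change at 200 ng/ml was 0.87 ± 0.12 in D-F (adjusted p = 0.00259 by edgeR), 0.06 ± 0.12 in A-C and 0.46 ± 0.09 on average (adjusted p = 0.00928 by edgeR). CCNE2, cyclin E2, was at 10.2 and 11.0 TPM in A, 12.1 and 11.7 in B, 15.0 and 19.5 in C, 12.7 and 14.2 in D, 23.1 and 24.2 in E and 23.8 and 22.1 in F. By TPM it was higher than control in every treated sample of both sets. By CPM B1, at 15.93, lay just below A2, at 16.01. The changes of CCNE2 at 200 ng/ml were 0.59 in A-C, 0.54 in D-F and 0.57 ± 0.13 on average (adjusted p = 0.0266 by edgeR). CCNE1, cyclin E1, was at 15.1 and 13.6 TPM in A, 11.9 and 14.3 in B, 16.2 and 15.0 in C, 8.50 and 8.50 in D, 13.7 and 10.2 in E and 11.3 and 11.5 in F, with an averaged change of 0.28 (adjusted p = 0.170 by edgeR).

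E2F1 itself did not pass the averaged test, at -0.05 (adjusted p = 0.762 by edgeR), and the line sets went apart. It was at 42.7 and 40.7 TPM in A, 36.3 and 37.8 in B, 29.1 and 33.8 in C, 32.6 and 34.2 in D, 38.3 and 42.3 in E and 42.7 and 44.1 in F. In A-C every treated sample lay below both controls, and in D-F every treated sample lay above both, although neither change at 200 ng/ml passed alone, -0.40 in A-C (adjusted p = 0.0502 by edgeR) and 0.30 in D-F (adjusted p = 0.145 by edgeR). UHRF1, which brings the maintenance methylase to newly copied DNA, was at 140 and 140 TPM in A, 116 and 129 in B, 110 and 104 in C, 75.7 and 92.9 in D, 84.0 and 84.3 in E and 81.1 and 105 in F. It lay below the controls in A-C and overlapped them in D-F, with changes of -0.27 and 0.23 that did not pass.

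**Figure D2:**
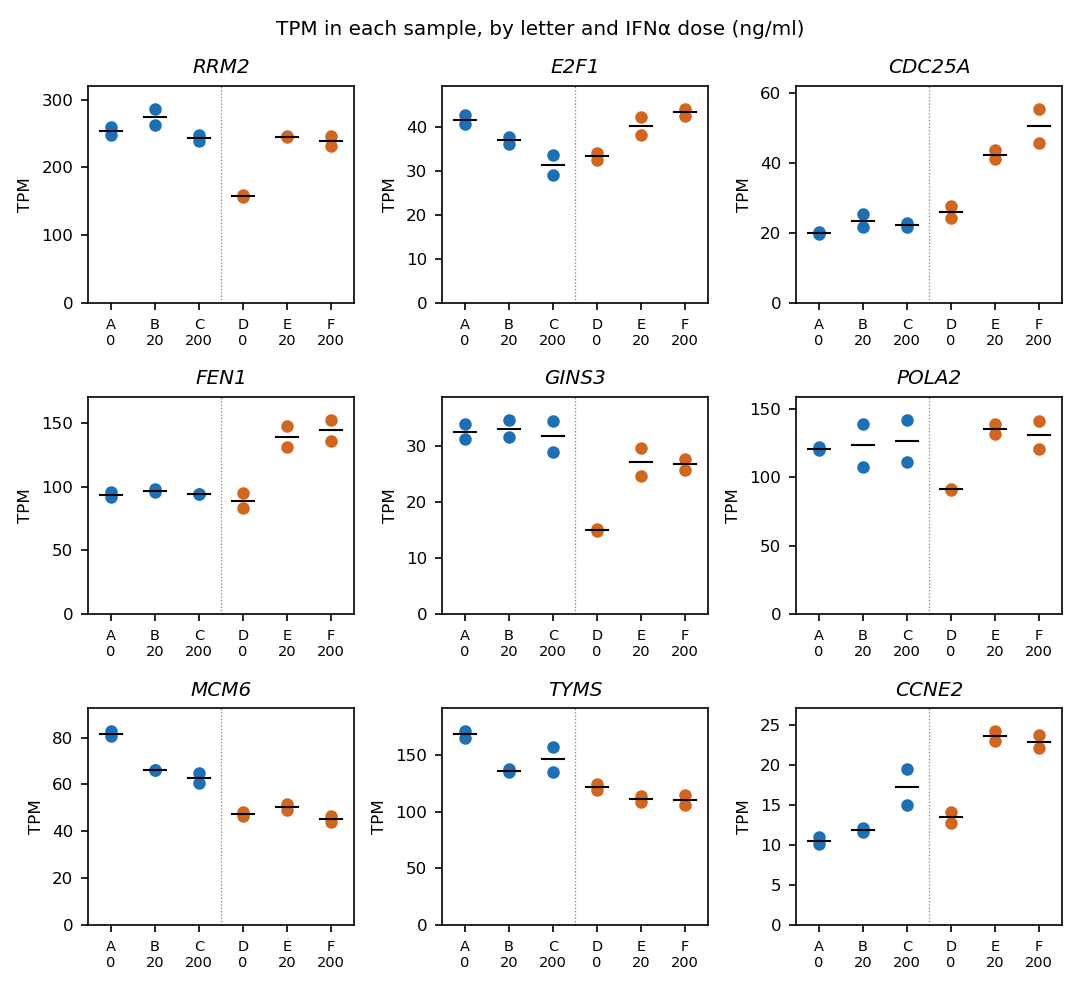
TPM (y axis, from 0) of 9 members in each of the 12 samples, by letter and IFNα dose in ng/ml; points are samples, bars the mean of 2, A-C blue and D-F orange. RRM2, CDC25A, FEN1, GINS3 and POLA2 step up from D to E and F and stay level over A-C, MCM6 is lower in B and C than in A, and the points of E2F1 in B and C lie below A and those in E and F above D.

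The 15 remaining members had averaged log2 fold changes at 200 ng/ml between -0.16 for LIG1, the DNA ligase of the lagging strand, and 0.23 for RFC2, a clamp loader subunit, and none passed. Over all 38 the median was 0.06, against -0.01 over all 19944 genes tested. The count of members that passed depended on single libraries. It was 2 without A2, D1 or F1, 3 without A1, and 4 without C2, D2 or F2, against 10 with all samples. CDC25A passed in all 12 fits that left out 1 library, and FEN1 in 8 of them. CDC25A, FEN1, RRM2 and CCNE2 also passed by limma on log2(TPM + 1), while no member fell by that test. The other 6 lost the call, GINS3 with an adjusted p of 0.0546, ORC6 of 0.0549, MCM6 of 0.0811, POLA2 of 0.158, TYMS of 0.177 and GINS4 of 0.257.

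The next comparison asked whether the response differed between the line sets. In D-F, 7 members rose at 200 ng/ml (CDC25A, GINS3, FEN1, RFC3, CDC6, POLA2 and RRM2) and 0 fell, where 5.84% of all genes tested passed, 3.44% upward. The count was 2 without D1 and 3 without F1 or F2. By limma on log2(TPM + 1) it was 7 as well, but RFC3, CDC6 and POLA2 lost the call (adjusted p = 0.215, 0.0750 and 0.104) and CCNE2, MCM2 and CDC45 gained it (adjusted p = 0.0308, 0.0139 and 0.0476). In A-C, MCM6 fell and 0 rose, where 7.18% of all genes passed, 3.6% downward, and the count was 0 without A1, A2, B1, B2 or C2 and 2 without C1 or F1. The other tools also gave few calls in A-C, with DESeq2 calling 3 lower and limma 2 lower and 1 higher (CCNE2). Both F samples lay above both D samples in 25 of the 38 members by TMM-normalised counts, where 25.3% of all genes did so, and both C samples lay below both A samples in 18, where 25.8% of all genes did so. Both patterns were found together in 8 members (CDC45, CDT1, E2F1, GINS2, MCM2, RFC5, RRM2 and TK1), where 5.1% of all genes showed them, and the opposite combination in 0 members, where 4.44% of all genes showed it. By TPM the same pair of patterns was found in 7 of the 8, all but RFC5, where 6.56% of all genes showed it. Other members went 1 way in both line sets by TMM-normalised counts. At 200 ng/ml 4 lay below the controls in both (GINS4, MCM5, MCM6 and TYMS), where 8.66% of all genes did. Another 5 lay above them in both (CCNE1, CCNE2, ORC1, ORC6 and PRIM1), where 8.23% of all genes did. Both counts were near the shares of all genes. By TPM, GINS4, CCNE1 and PRIM1 overlapped their controls in A-C, and MCM5 and MCM6 did so in D-F.

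Testing the difference itself, the change at 200 ng/ml in D-F minus that in A-C was positive in 34 of the 38 members, with a median of 0.35 against 0.03 over all genes tested, and positive in 10339 of the 19944 genes (51.8%). It passed in 2 members, where 1.88% of all genes passed, 1.07% with a positive difference, and 15 were at an unadjusted p of at most 0.05, where 17.7% of all genes were. RRM2 differed by 0.62 ± 0.09 (adjusted p = 0.0143 by edgeR) and E2F1 by 0.69 ± 0.15 (adjusted p = 0.0489 by edgeR). CDC25A, with the largest difference of the 38 at 0.80, was just short of the threshold (adjusted p = 0.0514 by edgeR), followed by FEN1 at 0.60 and CDT1 at 0.67 (adjusted p = 0.0670 and 0.0785 by edgeR). The call for E2F1 was lost without any 1 of the 12 libraries, with adjusted p between 0.0620 and 0.181 by edgeR, and that for RRM2 without D1, F1 or F2, so that the count was 0 without any of those 3. By limma on log2(TPM + 1) the difference passed for RRM2, at 0.65, and MCM2, at 0.96, whereas MCM2 differed by 0.35 on the counts (adjusted p = 0.221 by edgeR).

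The summed TPM of the 38 members went the same way as these counts. It was 3381 and 3270 in A, 3067 and 3082 in B and 2998 and 3053 in C, and 2834 and 3072 in D, 3574 and 3551 in E and 3567 and 3699 in F. Every treated sample lay below both controls in A-C and above both in D-F. Other measures moved with the line set too. The 12 interferon-stimulated genes had a median log2 fold change of 3.18 in A-C against 5.03 in D-F, 10 of them with a difference that passed, and CD68 rose by 0.82 in A-C against 2.71 in D-F. Their part in the difference between line sets was not tested.

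At 20 ng/ml, 4 members passed the averaged test, where 3.93% of all genes tested did, 2.33% higher and 1.6% lower. CDC25A rose by 0.39, FEN1 by 0.33 and RRM2 by 0.23, and TYMS fell by 0.27 on the log2 scale (adjusted p = 0.0341, 0.0327, 0.0216 and 0.0444 by edgeR). The count depended on single libraries, being 0 without A2, B1, B2, D1 or E2, 1 without A1 or D2, 2 without E1 or F2 and 3 without F1, and it was 0 when genes with few counts were kept in. Within D-F, 5 members rose at 20 ng/ml (CDC25A, FEN1, GINS3, RRM2 and POLA2), where 3.37% of all genes passed, 2.15% upward. Within A-C 0 passed by edgeR, where 1.11% of all genes passed, with 4 at an unadjusted p of at most 0.05, where 12.3% of all genes were. The difference between line sets at 20 ng/ml was positive in 37 of the 38 members, where 52.7% of all genes were positive. Its median was 0.32 over the members and 0.03 over all genes tested. By edgeR 0 members passed, where 0.371% of all genes did. At an unadjusted p of at most 0.05 there were 15, where 10.5% of all genes were. Both doses were compared with the same controls.

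Between the doses, 0 of the 38 members differed by edgeR, and 0 by DESeq2 or limma, where 0.135% of all genes tested passed by edgeR. At an unadjusted p of at most 0.05 there were 3, CCNE1, CCNE2 and RFC2, which were higher at 200 than at 20 ng/ml by 0.34, 0.30 and 0.22 on the log2 scale, where 9.26% of all genes were at that p. The median difference over the members was 0.01, between -0.74 for GINS4 and 0.34 for CCNE1.

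Without IFNα the line sets already differed in these genes. In D, 23 members were lower than in A and 4 higher (GINS1, RFC2, MCM7 and PCNA), where 46.4% of all genes tested passed, 22.4% lower and 24.1% higher, and the median was -0.45 against 0.01 over all genes. RFC4, GINS3 and GINS2 were at least 2-fold lower, as 11% of all genes were. RRM2 was lower by 0.89 ± 0.07 on the log2 scale and E2F1 by 0.45 ± 0.10. At 20 ng/ml the comparison of E with B gave 10 members lower and 8 higher, where 45.5% of all genes passed, 21.2% lower and 24.3% higher, with a median of -0.18. At 200 ng/ml F against C gave 13 lower and 9 higher, where 48.3% of all genes passed, 22.6% lower and 25.7% higher, with a median of -0.03. The number of members with a lower level in D-F went from 29 without IFNα to 22 at 20 and 19 at 200 ng/ml. Of all genes tested, 50.3% were higher in D than in A, 51.1% in E than in B and 51.9% in F than in C. These comparisons use the same samples as the changes above and are given side by side only.

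**Figure D3:**
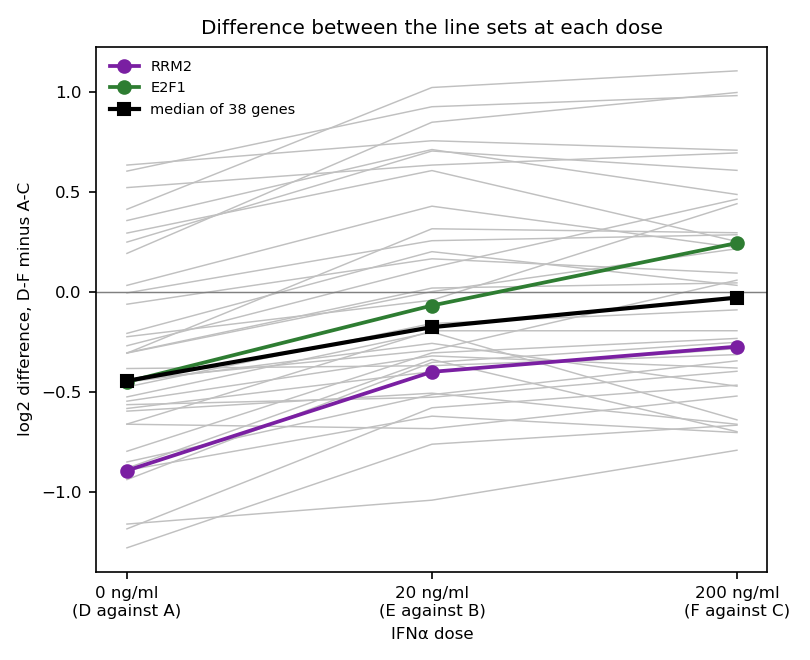
Log2 difference between the line sets (D-F minus A-C, y axis) at each IFNα dose for the 38 members (grey lines), with RRM2 (purple), E2F1 (green) and the median (black squares). The median goes from -0.45 without IFNα to -0.18 at 20 and -0.03 at 200 ng/ml, and the lines keep a wide spread at every dose.

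Genes that act beside the members were taken from lists of the same pathways. Of 44 other replication factors, 8 rose and 1 fell at 200 ng/ml in the averaged test. In that test 4.98% of all genes rose and 4.57% fell, the shares to set beside the counts of the 3 lists given here. The risers included CLSPN, the checkpoint adaptor claspin, by 0.44, ORC3 and ORC4, subunits of the origin recognition complex, by 0.33 and 0.40, MCMBP, which binds the MCM ring, by 0.37 and DBF4B, an activator of the CDC7 kinase, by 0.29. POLE4, a histone-fold subunit of polymerase ε, fell by 0.57 on the log2 scale. Of 14 other nucleotide supply genes, SAMHD1 rose and CAD and RRM2B fell by 0.46 and 0.48 on the log2 scale. SAMHD1 breaks down deoxynucleotides and is a known interferon-stimulated gene. It was at 20.7 and 19.9 TPM in A, 93.3 and 91.9 in B, 106 and 137 in C, 33.1 and 30.5 in D, 209 and 221 in E and 243 and 233 in F, with an averaged log2 fold change of 2.71. It thus rose in both line sets, 2.61 in A-C and 2.82 in D-F, while RRM2, which makes deoxynucleotides, passed in D-F and not in A-C, with the tested difference given above. Of 33 other G1/S regulators tested, 5 rose (E2F7 by 0.42, LIN9 by 0.41, LIN52 by 0.36, RBL1 by 0.30 and CCND3 by 0.58), and MYBL2 fell by 0.26 on the log2 scale. CDKN2B, a kinase inhibitor of G1, also passed as lower on the counts, at -0.76, but by TPM it was at 3.48 and 4.50 in A against 6.96 and 6.18 in C, and 11.04 and 9.62 in D against 7.39 and 6.81 in F, and with limma on log2(TPM + 1) its averaged change was 0.06 (adjusted p = 0.846). Of the other genes named in these 3 lists, CLSPN, ORC3, MCMBP, SAMHD1 and CCND3 also passed by limma on log2(TPM + 1), and ORC4, DBF4B, POLE4, CAD, RRM2B, E2F7, LIN9, LIN52, RBL1 and MYBL2 did not.

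The genes of G2 and mitosis went the other way in D-F. Of 30 such genes, 12 fell and 0 rose in D-F at 200 ng/ml, where 2.39% of all genes fell, with a median of -0.39 where that of the members was 0.24. In A-C 4 fell and 3 rose, where 3.6% of all genes fell and 3.58% rose, with a median of -0.01. Averaged over the sets 12 fell, where 4.57% of all genes did. Among them were KIF20A by 0.60, PLK1 by 0.40, AURKA by 0.60, TOP2A by 0.28 and CENPF by 0.36 on the log2 scale. KIF20A, a kinesin of cytokinesis, was at 90.3 and 93.9 TPM in A, 102 and 76.3 in B, 90.5 and 74.7 in C, 132 and 104 in D, 61.9 and 66.1 in E and 55.3 and 55.3 in F. Its treated samples of D-F all lay below their controls. The difference between the line sets had a median of -0.24 over the 30 genes and 0.35 over the 38 members. The shares of cells in each phase were not measured in these files.

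**Figure D4:**
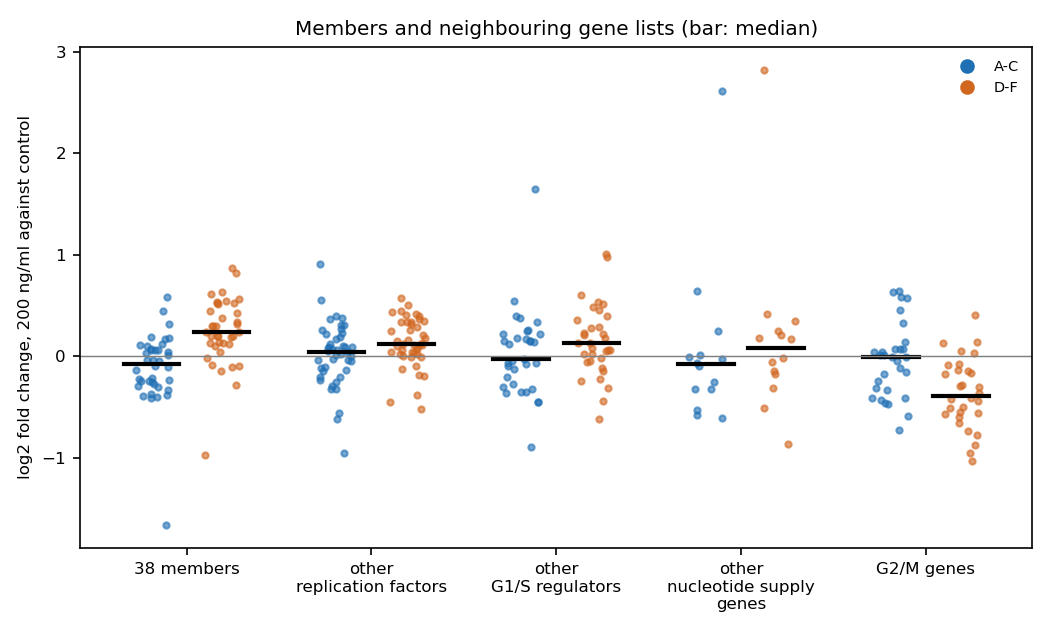
Log2 fold change at 200 ng/ml IFNα against control (y axis) for the 38 members and 4 neighbouring gene lists, each gene a point, A-C blue and D-F orange, with the median as a bar. In D-F the bar of the members is at 0.24 and that of the G2/M genes at -0.39, while in A-C they are at -0.07 and -0.01.

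Promoter windows of RefSeq on GRCh38.p14, from 250 bases before to 50 after the start, were at hand for 34 of the 38 members, all but CCNE2, GINS4, MCM4 and MCM5. The E2F octamers TTTCCCGC, TTTGGCGC, TTTCGCGC and TTTGCCGC, on either strand, were found in 20 of the 34 windows (58.8%) and in 908 of 27305 windows of all genes (3.33%). The CCAAT box, bound by NF-Y, was in 58.8% of the members' windows and 35.7% of all, and GGGCGG, bound by Sp1, in 73.5% and 44.6%. RRM2 and FEN1 rose in D-F with none of these 4 octamers in their windows, which says only that these letters are not there. A match is a description of the letters and not a bound site. The windows below belong to members that passed a test at 200 ng/ml and hold an octamer, but not all such members are shown. CDC6 and RFC3, which rose in D-F, and TYMS, which fell in the averaged test, each hold 1 octamer too. The sequences run 5′ to 3′ along the gene's own strand, with E2F octamers of either strand in capitals.

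E2F1, whose change differed between the line sets, at chr20:33686336-33686635, minus strand, with an octamer on each strand:
E2F1: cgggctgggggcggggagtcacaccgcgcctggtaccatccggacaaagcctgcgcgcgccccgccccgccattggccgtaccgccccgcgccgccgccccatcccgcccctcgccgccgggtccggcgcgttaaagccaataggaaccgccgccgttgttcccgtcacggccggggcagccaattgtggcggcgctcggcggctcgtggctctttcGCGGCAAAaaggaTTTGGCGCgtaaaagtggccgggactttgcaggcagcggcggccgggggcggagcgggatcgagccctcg
CDC25A, the member with the largest rise in D-F, at chr3:48188368-48188667, minus strand, with 1 octamer:
CDC25A: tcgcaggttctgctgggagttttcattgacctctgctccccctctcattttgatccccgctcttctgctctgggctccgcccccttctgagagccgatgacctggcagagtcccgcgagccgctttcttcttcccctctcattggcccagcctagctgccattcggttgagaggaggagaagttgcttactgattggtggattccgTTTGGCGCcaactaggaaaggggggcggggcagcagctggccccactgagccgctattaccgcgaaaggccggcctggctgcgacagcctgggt
GINS3, which rose in D-F, at chr16:58392221-58392520, plus strand, with 1 octamer over the start itself. By the gene positions that the authors deposited, GINS3 spans 58295080 to 58406144 of chromosome 16, so this window lies inside that span:
GINS3: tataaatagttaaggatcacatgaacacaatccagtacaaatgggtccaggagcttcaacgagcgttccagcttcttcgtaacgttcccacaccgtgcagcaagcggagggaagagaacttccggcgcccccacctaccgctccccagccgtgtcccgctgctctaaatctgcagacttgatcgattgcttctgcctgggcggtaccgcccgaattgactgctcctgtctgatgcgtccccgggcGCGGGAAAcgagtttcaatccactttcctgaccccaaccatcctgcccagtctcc
POLA2, which rose in D-F, at chr11:65261712-65262011, plus strand, with 1 octamer:
POLA2: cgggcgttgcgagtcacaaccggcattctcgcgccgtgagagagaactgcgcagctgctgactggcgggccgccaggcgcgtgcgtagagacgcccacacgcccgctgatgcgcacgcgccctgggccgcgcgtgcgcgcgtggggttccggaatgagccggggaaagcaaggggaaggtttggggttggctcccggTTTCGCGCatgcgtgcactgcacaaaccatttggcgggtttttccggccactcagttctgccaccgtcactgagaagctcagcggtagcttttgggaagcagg
MCM6, which fell in A-C, at chr2:135876394-135876693, minus strand, with 4 octamers as 2 pairs, each a plus and a minus strand match that overlap:
MCM6: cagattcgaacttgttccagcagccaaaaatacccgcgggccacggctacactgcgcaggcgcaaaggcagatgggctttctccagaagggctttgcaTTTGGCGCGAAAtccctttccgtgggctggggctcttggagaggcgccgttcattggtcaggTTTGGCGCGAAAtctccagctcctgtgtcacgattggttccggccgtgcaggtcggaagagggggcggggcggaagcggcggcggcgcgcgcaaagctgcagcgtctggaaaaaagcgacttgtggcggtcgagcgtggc

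In E2F1 the matches lay 33 to 26 and 20 to 13 bases before the start, in CDC25A 44 to 37, and in POLA2 53 to 46. In MCM6 they lay 152 to 141 and 90 to 79 bases before it. The members shown thus include members that rose, a member that fell and E2F1, whose changes passed in neither line set, all with an E2F octamer.

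**Figure D5:**
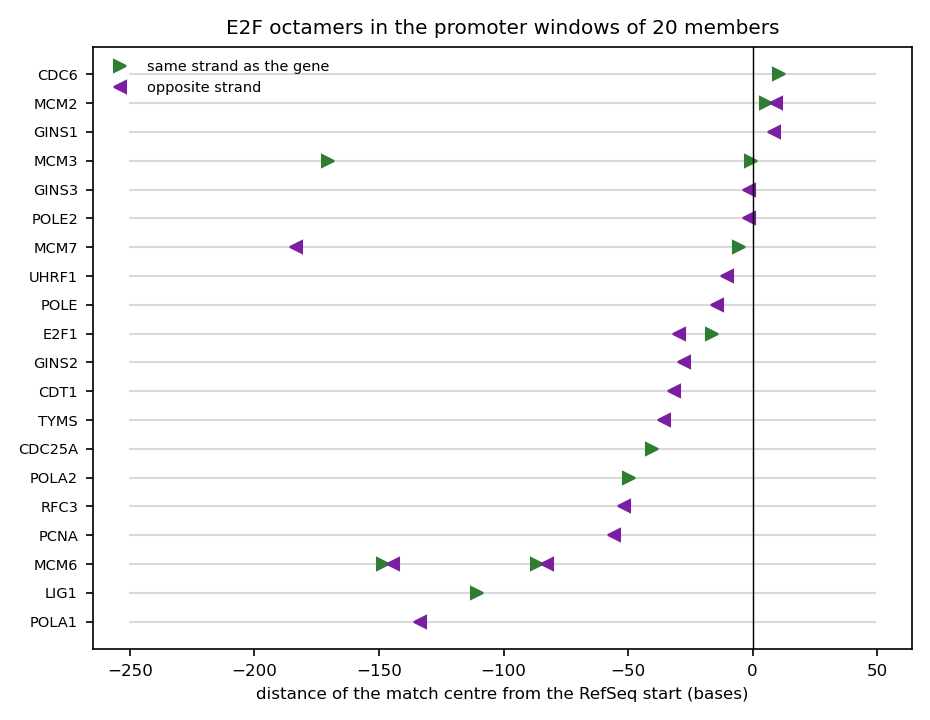
Distance of each E2F octamer's centre from the RefSeq start (x axis, in bases) for the 20 members whose window holds one; triangles point right for a match on the gene's strand and left for the other, and grey lines are the 300-base windows. In MCM6, POLA1 and LIG1 no match lies as near the start as in the other genes shown.

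The gene table sums over transcripts, and 321 transcripts of the members were deposited. By their types in GENCODE 29, 150 are protein coding, 89 retain an intron and 34 are marked for nonsense-mediated decay, while 1 was not found there. The leading transcript was the one with the highest mean TPM, and its share of the gene's TPM differed by more than 20 percentage points between the 2 samples of some letter in 24 of the 38 members. E2F1 has 1 transcript. For ORC6 the leading transcript retains an intron, and protein coding transcripts held 13.1% to 28.6% of ORC6 TPM over the samples. For RRM2 protein coding transcripts held 72.9% to 79.8%, and for FEN1 all of it. In an exact two-sided permutation test that exchanged control and 200 ng/ml within line sets, 3 of the 23 named members reached 0.0556, the smallest p that the 36 arrangements allow. These were MCM7, where the share of the leading transcript was higher at 200 ng/ml by 28.5 percentage points, UHRF1, where it differed by -27.3, and RRM1, where it differed by -18.6. The design cannot reach 0.05, and the replicates of 1 letter differed by up to 50.5, 55.1 and 53.0 percentage points for these 3 genes. The test was run on members only, so no share of all genes can be set beside the 3.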

How the data were processed

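Gene and transcript tables of 12 samples were used. The authors deposited an estimated count per gene and transcript, not scaled for depth, and TPM, which the authors scaled for length and depth. The deposited FPKM values were not used. The submitters' processing notes name Trimmomatic 0.36, HISAT2 2.1.0, StringTie 1.3.3b and GRCh38.p10. Libraries were strand-specific and depleted of rRNA. Where transcripts overlap, their estimated counts, and through them gene values, depend on how reads were divided.

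Counts, rounded to whole numbers, were fitted with edgeR 4.0.16 in R 4.3.3 (TMM, filterByExpr, quasi-likelihood test, Benjamini-Hochberg over 19944 genes, 6 groups in 1 fit of 12 samples), with contrasts averaged over line sets or within them. The common coefficient of variation between replicates was 0.196. Genes passed at an adjusted p of at most 0.05, and 2-fold changes were counted beside this. Total counts of 10517448 to 16056734 and 2 samples per letter set the precision. Alternatives were DESeq2 1.42.0, limma 3.58.1 on log2(TPM + 1) and log2(TPM + 0.1), other scalings and filters, a block by replicate number, subsets of samples and the study's thresholds (unadjusted p, 2-fold) applied to edgeR's p, where the study used t-tests. Scripts were tested on simulated data. Tables and figures were made in Python 3.11.15 (numpy 2.4.6, pandas 2.3.3, matplotlib 3.10.9). Replicates of a letter differed by more than counting error alone (chi-square of 11.7 to 16.4 per degree of freedom) and were counted separately.

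The members and lists were chosen with earlier results of these data known. Samples were grouped by their titles, and doses came from the series' design. Members with values in every sample were the 3 smallest p-values per role at 200 ng/ml, those that passed the difference between line sets (up to 6) or the averaged test at 20 ng/ml (up to 4), and CCNE1, CCNE2, E2F1 and CDC25A. From each other list up to 5 genes per direction were named by p. The single squamous markers, CD68, CDH5, COL1A1 and the genes of the closing section were named after their values were seen. So were the comparisons of the line sets at 20 and 200 ng/ml.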

Additional observations from a re-analysis of the deposited data

Results flagged for a closer look

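For 2 members the change at 200 ng/ml IFNα differed between the line sets by a test of the difference itself. RRM2 changed by 0.62 more in D-F than in A-C on the log2 scale (adjusted p = 0.0143 by edgeR), from 157 and 160 TPM to 246 and 232 in D-F and from 248 and 259 to 239 and 248 in A-C. E2F1 differed by 0.69 (adjusted p = 0.0489 by edgeR, lost in most alternatives), from 32.6 and 34.2 TPM to 42.7 and 44.1 in D-F and from 42.7 and 40.7 to 29.1 and 33.8 in A-C. Groups of 2 samples are too small for a search for single samples far from the rest.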

How the results depend on the processing

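The count of members that passed at 200 ng/ml, 10 in the averaged test, was 5 with only the samples compared, 4 by limma on log2(TPM + 1) and on log2(TPM + 0.1), and 2 to 9 when 1 library was left out. At 20 ng/ml it was 0 with no filter on low counts and 0 to 4 when 1 library was left out, against 4. In A-C it was 3 by DESeq2 and by limma at either offset, 2 with library size only, 0 with no filter and 0 to 2 when 1 library was left out, against 1. In D-F it was 2 to 8 when 1 library was left out, against 7. For the difference between line sets it was 5 by DESeq2, 4 with library size only, 1 with RLE factors, with no filter or with only the samples compared, and 0 to 2 when 1 library was left out, against 2. Between doses it was 0 in each fit, and for D against A 19 to 28. With the study's thresholds of an unadjusted p of at most 0.05 and 2-fold, but with edgeR's p in place of the test the study used, it was 1 at 200 ng/ml on average, 0 at 20 ng/ml, 0 in D-F, 0 for the difference and 3 for D against A. By the share of the estimated count, 1 named member in place of 3 reached the smallest exact p for its leading transcript. The cause of these changes was not tested. Fits on fewer samples have fewer degrees of freedom.

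Replicate numbers share no stated batch or day, and deviations from the letter means correlated between same-numbered samples by -0.046 to 0.056 over 13033 genes, so they were not taken as pairs. With the replicate block, 7 members passed at 200 ng/ml, 2 at 20 ng/ml, 0 in A-C, 6 in D-F, 0 for the difference (adjusted p = 0.0593 for RRM2 by edgeR), 0 between doses and 23 for D against A.

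Among single members the change of MCM7 turned from -0.05 to 0.016 by limma on log2(TPM + 1) and log2(TPM + 0.1), and that of UHRF1, -0.02, ran from -0.125 to 0.0929 when 1 library was left out, being positive without C2, D2 or F1. Neither passed in any of these fits. For E2F1 and RRM2 the difference between line sets kept its sign in each alternative, from 0.61 to 0.79 and from 0.59 to 0.69, but that of E2F1 passed in 2 of the 8 alternatives that kept all libraries or all those compared (DESeq2 and library size only) and was lost in the other 6, with adjusted p up to 0.102.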

Other observations

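Among the other replication factors, 2 of 44 passed the test of the difference between line sets at 200 ng/ml, where 1.88% of all genes did. DBF4, the activating subunit of the CDC7 kinase that fires origins, rose by 0.91 on the log2 scale in A-C (adjusted p = 0.0188 by edgeR) and was at -0.38 in D-F (adjusted p = 0.277 by edgeR), a difference of -1.30 (adjusted p = 0.0382 by edgeR). It was at 24.6 and 24.1 TPM in A, 38.02 and 27.4 in C, 58.1 and 56.1 in D and 41.1 and 40.3 in F, and so went opposite to most of the 38 members. RECQL4, a helicase linked to the start of replication, fell by 0.62 on the log2 scale in A-C and was at 0.37 in D-F, a difference of 0.99 (adjusted p = 0.0365 by edgeR).

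Of the 30 G2/M genes, 6 passed the same test, 5 lower in D-F and 1 higher, where 0.807% of all genes passed as lower and 1.07% as higher. CENPE, a kinetochore motor, rose by 0.64 in A-C and fell by 0.87 on the log2 scale in D-F, from 69.7 and 69.9 TPM in D to 40.1 and 40.5 in F. HMMR, a spindle protein, rose by 0.45 in A-C and fell by 0.65 on the log2 scale in D-F. CDC25B, a phosphatase of mitotic entry, fell by 0.47 on the log2 scale in A-C and was at 0.41 in D-F, with a difference of 0.87 (adjusted p = 0.0314 by edgeR). By limma on log2(TPM + 1) the difference passed for CDC25B and CENPE and not for HMMR, DBF4 or RECQL4. These genes were chosen after their values were seen.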
